A study of Caenorhabditis elegans with 4 samples.

Results

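The C-type lectin genes of Caenorhabditis elegans are described here, taken as every gene whose symbol begins with clec-, apart from clec-60 to clec-67. There are 212 of them among the 17118 genes that have at least 1 probe set naming them alone, and a gene with several such probe sets stands by the one with the highest mean over the 4 arrays. Whole wild-type N2 worms were harvested on day 8 as adults and their RNA was measured on Affymetrix expression arrays, 2 for worms given DMSO, the solvent, and 2 for worms given the antibiotic rifampicin (RIF). All 4 samples came from liquid cultures fed heat-killed OP50-AMP with carbenicillin and amphotericin B, and fed again on day 5. FuDr, an inhibitor of DNA synthesis that stops the production of progeny, was added as a 0.6 mM solution, which the culture diluted. The labels call the arrays of a group biological replicates and give no dose of RIF, and 1 of their fields names a control RNAi in both DMSO samples and RNAi of idr-1 in both RIF samples, which the titles do not. That field splits the samples exactly as the treatment does, so the labels alone do not tell the pair of readings apart, and the titles were followed here.

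C-type lectins share a fold that in many animal proteins binds sugars with the help of calcium, although many worm members may bind other ligands. Most are predicted to be secreted or membrane-bound, and many are made in the intestine, where infection changes the expression of different members depending on the microbe. Several of them are widely used as readouts of the PMK-1 p38 pathway, a branch of worm innate immunity. Some have other roles, and clec-87 and clec-88 encode core proteins of chondroitin proteoglycans, which are made in the germ line.

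Values are deposited log2 values, so that 1 unit is a doubling. Transcripts of yeast and bacteria that a worm does not have are read by 8 controls, at 0.44 to 1.62, and a group mean above 1.32, the highest of their group means, is called above the absent controls. Their highest group mean was 1.11 with DMSO and 1.32 with RIF, and the higher limit was used for both groups. A mean over all 4 arrays is called so when it is above 1.19, their highest such mean. Across probe sets, no replicates of each other, Pearson's r was 0.970 for the DMSO pair, 0.981 for the RIF pair and 0.961 to 0.972 for arrays of unlike treatment. The median 5′ minus 3′ difference of 4 transcripts that check RNA quality was -1.68 on DMSO replicate 1, -3.19 on DMSO replicate 2, and -2.39 and -2.37 on those of RIF, so DMSO replicate 2 was the lowest. A gene is said to have risen or fallen when it changed 2-fold or more with an unadjusted p below 0.05. These are the study's fold and p limits, applied here to the p of limma, as 218 genes did upward and 266 downward. Each rise or fall is RIF minus DMSO, with its standard error and the Benjamini-Hochberg adjusted p of limma over all probe sets, and 2 arrays a group limit the precision of each.

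Most lectin genes gave little signal in these worms. Of the 212, 118 (55.7%) had neither group mean above the absent controls, against 34.1% of all genes. Both means were above in 63, the DMSO mean alone in 14 and the RIF mean alone in 17. The median lectin value was 1.07 and 1.13 with DMSO and 1.14 and 1.11 with RIF, where the median over all genes was 1.85, 1.89, 1.99 and 1.91. The number of lectin genes above the absent controls was 77 with DMSO and 80 with RIF. It was 85 and 58 when both arrays of a group had to exceed the highest absent control of the same array, so neither group can be said to have more lectin genes above background. The 18 members that RefSeq lists as pseudogenes were almost all in the low range, with 1 mean of the 4 arrays above the absent controls and a highest mean of 1.41. None of these 18 rose or fell, and neither did any of the 5513 genes of the whole table with a mean not above the absent controls. The count is therefore not read as particular to pseudogenes.

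A short list of lectin genes held the strong signals. A mean over 4 was reached by 21 members (9.91%, against 30.3% of all genes) and a mean over 8 by 3. Values of different probe sets also depend on their probes, so this order is one of signals and not of transcript amounts. The highest was clec-87, which read 10.37 and 10.53 with DMSO and 10.26 and 10.22 with RIF. The next was clec-88, with 9.31 and 9.39 with DMSO and 9.07 and 9.14 with RIF. In both of these proteoglycan genes the RIF arrays lay slightly below the DMSO arrays without overlap, and neither passed the threshold (log2 differences -0.21 and -0.25, standard errors 0.15 and 0.14, adjusted p = 0.762 and 0.694 from limma). Their second probe sets differed by -0.28 and -0.27. The 8 germ line markers, taken from general knowledge, had a median log2 difference of -0.54 with none past the threshold, and their part in the values of clec-87 and clec-88 was not tested.

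The rest of the 10 strongest signals were mixed. clec-266 read 7.83 and 8.84 with DMSO and 7.89 and 8.96 with RIF, so that replicate 2 was higher by about the same amount in each group and the treatments overlapped (log2 difference 0.09, standard error 0.53). clec-91 was tighter, at 8.06 and 8.17 with DMSO and 7.68 and 7.69 with RIF, a difference of -0.43 that is smaller than the 2-fold threshold. clec-1 (-0.35), clec-47 (-0.64) and clec-150 (-0.55) were lower on average without passing, and clec-83 read 0.44 higher. Of the 10, clec-50 and clec-85 passed the threshold, both downward.

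Of the 212 lectin genes, 10 (4.72%) fell and 3 (1.42%) rose with RIF, where 1.55% of all 17118 genes fell and 1.27% rose. The share that fell was therefore above that of all genes, and the share that rose was close to it. No lectin gene passed an adjusted p below 0.05 in limma, as 0.0175% of all genes did downward and 0.00584% upward. At an unadjusted p below 0.05 alone, 16 lectins were lower and 7 higher, where 8.85% of all genes passed in either direction. Among the 99 members whose mean over the 4 arrays was above the absent controls, the same counts of 10 and 3 compare with 2.29% and 1.88% of such genes over the whole table. The DMSO arrays help to set that mean, and clec-72, with a RIF mean of 1.11, is among the 99 only through them. The median log2 difference of the family was near 0, at 0.01 with quartiles of -0.14 and 0.12, against 0.03, -0.16 and 0.21 over all genes. Both RIF arrays lay below both DMSO arrays in 41 members (19.3%, against 16% of all genes) and above them in 47 (22.2%, against 22.9%), so these shares were near those of the whole table. Of the 212 differences, 177 were no larger than 0.5 in size and 35 were larger. Over all genes 2865 of 17118 were larger, a like share, so this count is not particular to the lectins.

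**Figure D1:**
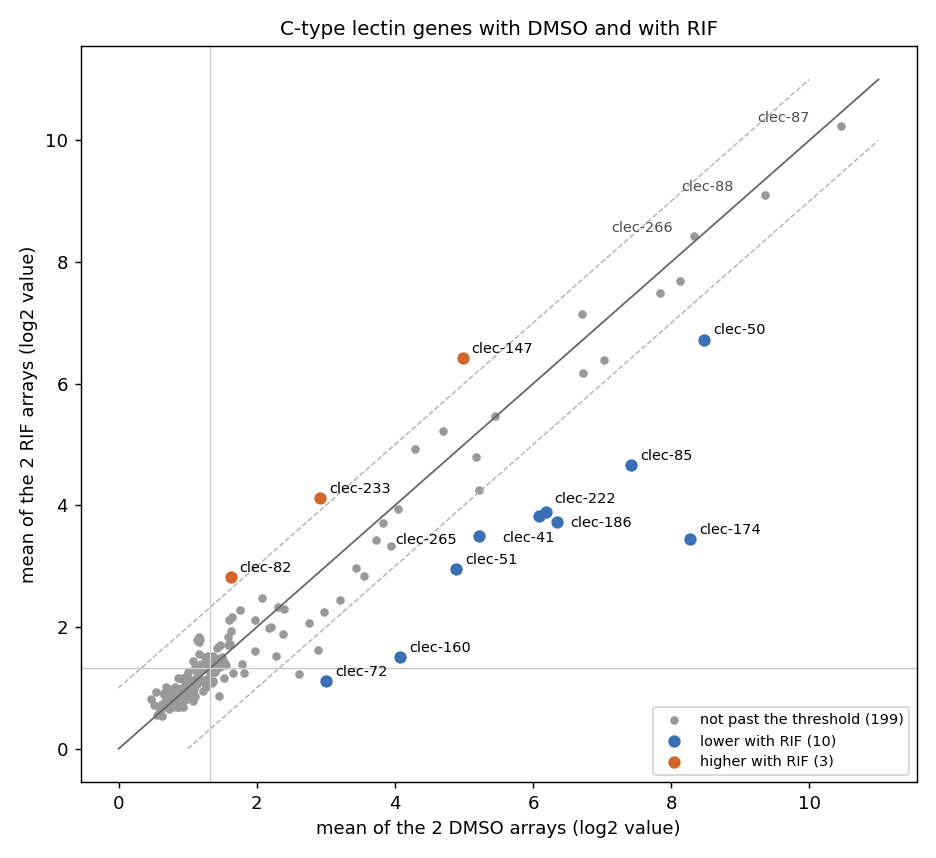
Mean log2 value of the 2 RIF arrays (vertical axis) against that of the 2 DMSO arrays (horizontal axis) for the 212 C-type lectin genes, with the line of equality, dashed lines at a 2-fold difference and thin grey lines at the limit of the absent controls (1.32). The 10 genes that fell lie below the lower dashed line, most of them at DMSO means between 4 and 9, while most of the family sits in the corner of low values.

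The shares that fell are given by the mean over the 4 arrays, which the RIF arrays help to set. In the range of means over 4 to 8, 7 of 18 lectin genes fell (38.9%), where 2.97% of the 4783 genes in that range did. Of these 7, 5 had a RIF mean not over 4 and so lay in the range only through the DMSO arrays. In the range over 2 to 4, 3 of 23 fell (13%), against 3.03%, and 2 of these 3 had a RIF mean not over 2. None of the 3 lectins over 8 fell or rose, where 4.47% and 1.24% of all genes in that range did. Of the 55 lectins between the absent controls and 2 none did either (0.28% and 0.342% of all genes), nor any of the 113 below (0.00% of all genes in each direction). The rises were 1 of 18 and 2 of 23 in the middle ranges (5.56% and 8.70%, against 2.17% and 3.06%). The median log2 difference of the 18 lectins over 4 to 8 was -0.59, where that of all genes in the range was -0.08. These shares are a description without a test, they rest on few related genes, and no link between level and change is drawn from them.

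**Figure D2:**
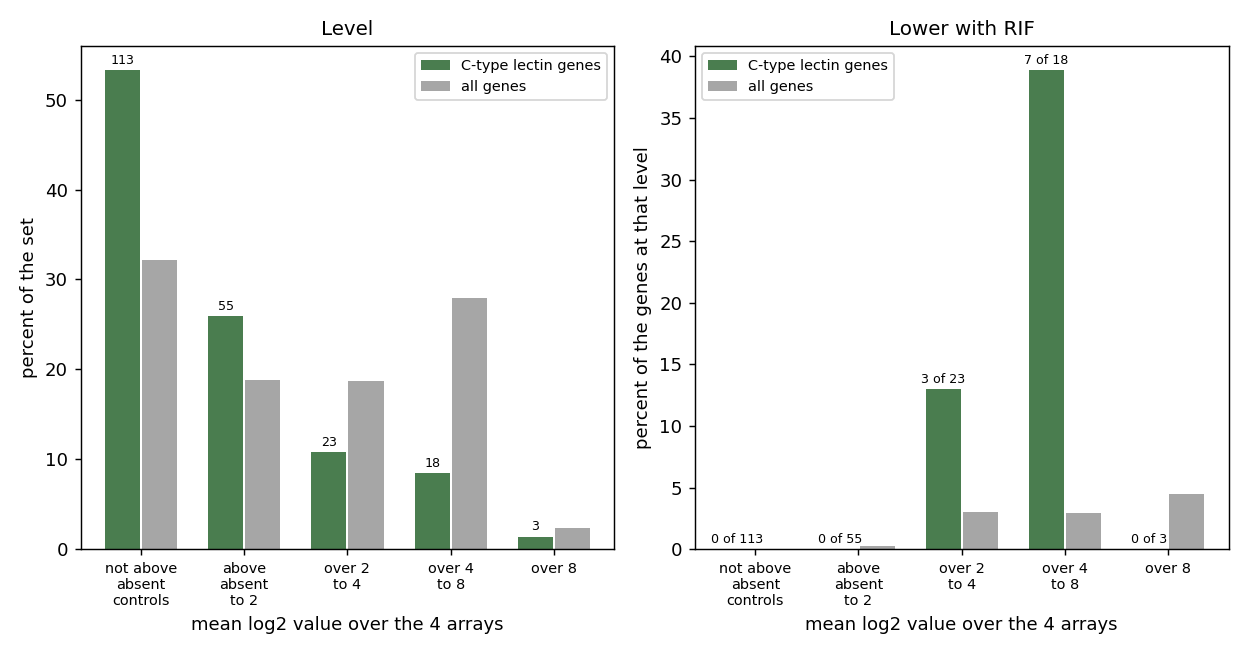
Left, percent of the C-type lectin genes (green, number above each bar) and of all genes (grey) in 5 ranges of the mean log2 value over the 4 arrays. Right, percent of the genes in each range that fell with RIF, with the lectin counts above the bars: 7 of 18 lectins at means over 4 to 8 fell, against 2.97% of all genes there, and 5 of the 7 lay in that range only through the DMSO arrays.

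clec-174 (Y46C8AL.2) fell furthest. It read 9.43 and 7.11 with DMSO and 3.43 and 3.46 with RIF. The groups were far apart, and the DMSO arrays differed by more than 2 units while the RIF arrays were nearly equal. The log2 difference was -4.83 (standard error 0.82, 28.4-fold lower, adjusted p = 0.392 from limma). It was -3.67 without DMSO replicate 1 and -5.98 without DMSO replicate 2, so the size of the fall depends on which DMSO array is used. Its probe set has an ending for probes that may bind other transcripts, so related lectins could share in this signal.

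The most even falls were those of clec-85, clec-222 and clec-186. clec-85 (Y54G2A.6), a gene used as a readout of PMK-1 activity, read 7.52 and 7.31 with DMSO and 4.75 and 4.58 with RIF. The arrays of each pair lay close together and far from the other pair (log2 difference -2.75, standard error 0.17, adjusted p = 0.114 from limma). With an intensity trend and a robust prior its adjusted p was 0.0461, and it was the 1 lectin gene to pass there. clec-222 (C03E10.6) read 6.23 and 6.13 with DMSO and 4.06 and 3.72 with RIF (-2.29, standard error 0.18, adjusted p = 0.154). clec-186 (ZK896.7) read 6.64 and 6.06 with DMSO and 3.71 and 3.74 with RIF (-2.63, standard error 0.24, adjusted p = 0.210). In all 3 the DMSO arrays lay more than 2 units above the RIF arrays, and their probe sets carry no ending for shared probes.

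clec-72 (Y46C8AL.5) fell to background. It read 3.32 and 2.68 with DMSO and 1.13 and 1.10 with RIF, both within the range of the absent controls (log2 difference -1.89, standard error 0.26, adjusted p = 0.336 from limma), so the size of the fall is measured against background. A second probe set of the gene, weaker and with shared probes, read 1.51, 1.69, 0.85 and 0.93 in the same order and did not pass (-0.71). clec-160 (F09G8.8) also came near background, from 5.03 and 3.11 with DMSO to 1.52 and 1.48 with RIF (-2.57, standard error 0.68). Its 2 DMSO arrays were nearly 2 units apart, with replicate 1 the higher.

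clec-50 (W04E12.8) had the highest mean of the genes that fell, at 8.68 and 8.26 with DMSO and 7.15 and 6.29 with RIF (-1.75, standard error 0.36, adjusted p = 0.466 from limma). clec-41 (B0365.6), which has been linked to defence against bacterial infection, read 6.29 and 5.88 with DMSO and 4.47 and 3.17 with RIF (-2.26, standard error 0.49). clec-51 (B0218.6) read 5.78 and 3.99 with DMSO and 3.02 and 2.88 with RIF (-1.94, standard error 0.64). In each of these 3 both RIF arrays were below both DMSO arrays, as in 16% of all genes. The DMSO arrays of clec-51 were nearly 2 units apart. clec-265 (M02F4.7), at 5.01 and 5.41 with DMSO and 3.08 and 3.90 with RIF (-1.72, standard error 0.35), was the 1 gene of the 10 in which DMSO replicate 2 was the higher DMSO array.

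The 3 genes that rose did so by less. clec-147 (C04H5.2) read 4.84 and 5.11 with DMSO and 6.46 and 6.38 with RIF, with each pair close together and a clear gap between them (log2 difference 1.44, standard error 0.17, adjusted p = 0.260 from limma). Its probe set has an ending for shared probes. clec-233 (F21H7.4) read 2.83 and 3.0 with DMSO and 4.63 and 3.61 with RIF (1.21, standard error 0.38). clec-82 (Y54G2A.8) was near background with DMSO, at 1.92 and 1.33, and read 2.46 and 3.18 with RIF (1.20, standard error 0.36). In clec-233 and clec-82 both RIF arrays were above both DMSO arrays, as in 22.9% of all genes. Their RIF arrays differed from each other by 1.02 and 0.72 units.

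**Figure D3:**
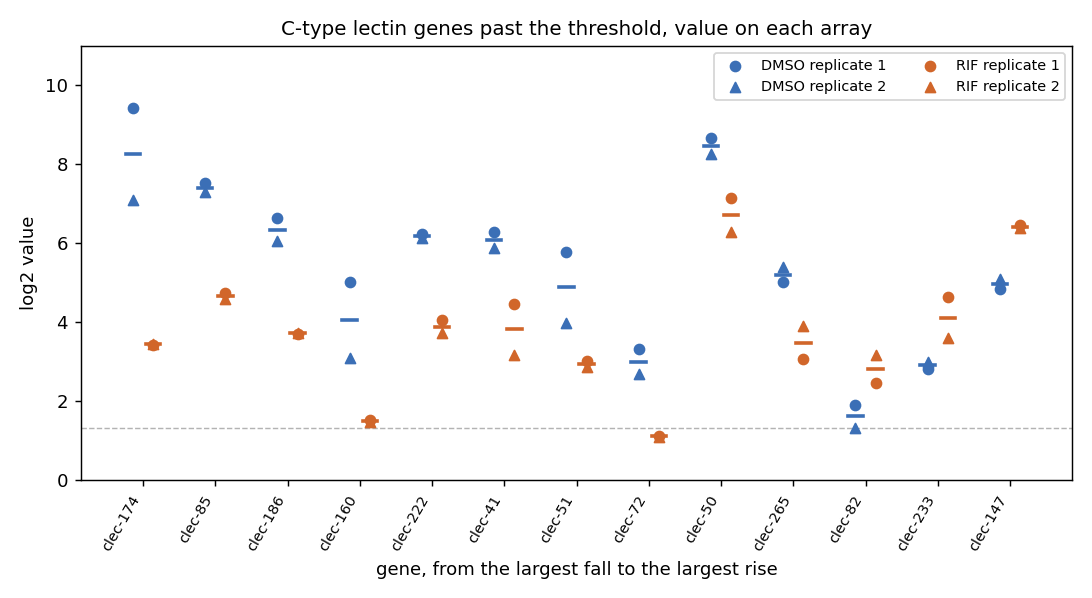
Log2 value on each array (vertical axis) of the 13 lectin genes past the threshold, from the largest fall on the left to the largest rise on the right, with circles for replicate 1, triangles for replicate 2, short lines for group means and a dashed line at the limit of the absent controls. The groups do not overlap in any of the 13, which the threshold that picked them favours, so this adds no support. Both RIF arrays lay below both DMSO arrays in 16% of all genes and above them in 22.9%. The DMSO arrays are far apart in clec-174, clec-160 and clec-51.

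Several of these calls were lost under other settings. clec-41 and clec-50 did not pass without DMSO replicate 1 (log2 differences -2.06 and -1.54), clec-51 and clec-160 did not pass without RIF replicate 1 (-2.01 and -2.60) or RIF replicate 2 (-1.86 and -2.55), clec-82 did not pass without DMSO replicate 2 (0.90) or RIF replicate 2 (0.83), and clec-233 did not pass without either DMSO array (1.12 and 1.29) or without RIF replicate 1 (0.70). The differences of clec-51 and clec-160 moved most with the DMSO array left out, to -1.04 and -1.61 without DMSO replicate 1 and -2.83 and -3.53 without DMSO replicate 2. The calls of clec-174, clec-85, clec-186, clec-222, clec-72, clec-265 and clec-147 remained with each of the 4 arrays left out. Of these, clec-174 and clec-265 were lost with the methods' t-test. clec-174 and clec-147 have no probe set without a shared ending, so they were not measured in that setting. Without DMSO replicate 2 the counts were 15 lower and 1 higher (2.84% and 2.0% of all genes). With probe sets without shared endings alone, 188 lectin genes were left, of which 6 fell and 2 rose (1.18% and 1.19% of all such genes). With the methods' t-test clec-72, clec-85, clec-186 and clec-222 fell and clec-147 rose, 4 and 1 (0.59% and 0.526% of all genes), and the other 8 did not pass.

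Some markers of other tissues fell or rose with RIF as well, where 1.55% of all genes fell and 1.27% rose. Of 7 body wall muscle markers, 4 fell, none of the 7 with a mean over the 4 arrays at or below the absent controls (unc-22 was close to them, at 1.31 and 1.44 with DMSO and 1.22 and 1.17 with RIF), with a median log2 difference of -1.20 and a log2 summed level of 9.64 to 9.89 with DMSO and 9.08 to 9.24 with RIF. Of 6 hypodermis markers, 1 fell, col-19, a collagen of the adult cuticle (-3.77), and their median log2 difference was -0.37. Their log2 summed level was 7.87 to 8.62 with DMSO and 7.08 to 7.22 with RIF. The DMSO sum leans on col-19, which read 8.10 and 6.31 with DMSO and 4.19 and 2.67 with RIF. By contrast, lin-26 differed by -0.29 and nekl-2 by 0.45. The 9 intestine markers measured, all above the absent controls, had a median of 0.08 with 1 higher and 1 lower, and their summed level was 9.88 to 10.06 with DMSO and 9.69 to 9.79 with RIF. The part of these markers in the lectin results was not tested, and in RNA of whole worms fewer cells of a type and less RNA per cell cannot be told apart.

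Most lectins known from infection work did not pass. All 14 genes of a list drawn from general knowledge were measured, of which clec-41 and clec-85 fell, clec-82 rose and 11 did not pass, where 1.55% of all genes fell and 1.27% rose. With the replicate number as a block, clec-42 and clec-70 also fell and clec-82 did not pass, so that 4 of the 14 were lower and 0 higher (1.69% and 1.44% of all genes). clec-39, linked to defence against Serratia marcescens, was within the absent range, at 0.71 and 0.75 with DMSO and 0.83 and 0.90 with RIF. clec-49, linked to the same bacterium, read 4.21 and 3.88 with DMSO and 4.18 and 3.71 with RIF, with the groups overlapping (log2 difference -0.10, standard error 0.24). clec-52, which is induced by Staphylococcus aureus, read 5.71 and 4.71 with DMSO and 5.28 and 3.24 with RIF (-0.95, standard error 0.81), and here the spread between replicates was wider than the difference. clec-70 (3.39 and 1.84 with DMSO, 1.35 and 1.11 with RIF) and clec-42 (3.66 and 2.12, then 1.91 and 1.35) were lower on both RIF arrays than on either DMSO array and did not pass (-1.38 and -1.26, standard errors 0.56 and 0.59). They were the largest differences among the lectins short of the threshold, and the RIF mean of clec-70 was not above the absent controls, so its difference is measured against background. The others of the list, clec-4, clec-7, clec-17, clec-71, clec-83 and clec-86, differed by -0.76 to 0.44 without passing.

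At the other end of the genes short of the threshold, clec-40 read 1.22 and 1.11 with DMSO and 1.96 and 1.71 with RIF (log2 difference 0.67). clec-264 read 4.10 and 4.48 with DMSO and 4.80 and 5.06 with RIF (0.64), and clec-185 read 1.21 and 1.06, then 1.29 and 2.26 (0.64). In these genes both RIF arrays were above both DMSO arrays, as in 22.9% of all genes. The difference of clec-185 lay mostly in RIF replicate 2. The DMSO means of clec-40 (1.16) and clec-185 (1.13) were not above the limit of 1.32 used here. They lay only just above 1.11, the highest DMSO mean of the absent controls, so the sizes of their differences are measured against background. The 8 lectin genes clec-60 to clec-67, set apart from the 212, included 5 that fell and 0 that rose (1.55% and 1.27% of all genes).

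None of the listed regulators of such effectors passed the threshold. The list holds 25 taken from general knowledge, among them the kinases of the p38 pathway and the transcription factors that act in the intestine. Of these, 23 were measured and 0 rose or fell, where 1.27% of all genes rose and 1.55% fell. Their median log2 difference was 0.27, against 0.03 over all genes. pmk-1, the p38 kinase, read 3.74 and 4.39 with DMSO and 4.05 and 4.25 with RIF (0.08, standard error 0.27). sek-1, the kinase that activates it, read 4.4 and 4.70 with DMSO and 5.08 and 5.69 with RIF (0.83, standard error 0.28), which is short of 2-fold. elt-2, the GATA factor of the intestine, differed by 0.63, zip-2, a bZIP factor of the infection response, by 0.89, and daf-16, the FOXO factor, by -0.23. The largest difference of the list was that of sma-9 (0.97, standard error 0.28) and the lowest that of skn-1 (-0.36, standard error 0.35). pqm-1 differed by 0.69 (standard error 0.14).

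Many lectin genes lie beside each other in the genome. In the gene order of RefSeq, counting protein-coding genes and allowing at most 2 others in between, 110 of the 194 protein-coding members fell into 36 groups of neighbours, the largest of 10, and 84 stood alone. Of the 13 genes past the threshold, 7 lay in such groups, and 1 group held more than 1 of them. That group has clec-70, clec-71, clec-174, clec-72, clec-73, clec-74, clec-75, clec-76 and clec-79 in this order. The log2 differences were -4.83 for clec-174 and -1.89 for clec-72, with -1.38 for clec-70, -0.41 for clec-74 and -0.05 for clec-71 short of the threshold. The call of clec-174 rests on a probe set with shared probes, so related genes could share in it. The RIF means of clec-72, clec-70 and clec-74 were not above the absent controls, so the sizes of their differences are measured against background. clec-73, clec-75, clec-76 and clec-79 were at background in both groups (-0.19 to 0.00), so their differences cannot be read.

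The neighbours of other genes that fell were lower by less. clec-187 read 3.51 and 2.02 with DMSO and 1.99 and 2.12 with RIF (-0.71) beside clec-186 (-2.63). clec-223 read 3.25 and 2.70 with DMSO and 2.26 and 2.23 with RIF (-0.73) beside clec-222 (-2.29), and clec-52 (-0.95) lies beside clec-51 (-1.94). These neighbours did not pass the threshold. clec-49 (-0.10) lies beside clec-50 (-1.75), and the differences of both rest on probe sets with shared probes. clec-82 rose beside clec-83, with 1 coding gene between them, which was 0.44 higher without passing, whereas clec-85, a further 3 coding genes away, fell.

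**Figure D4:**
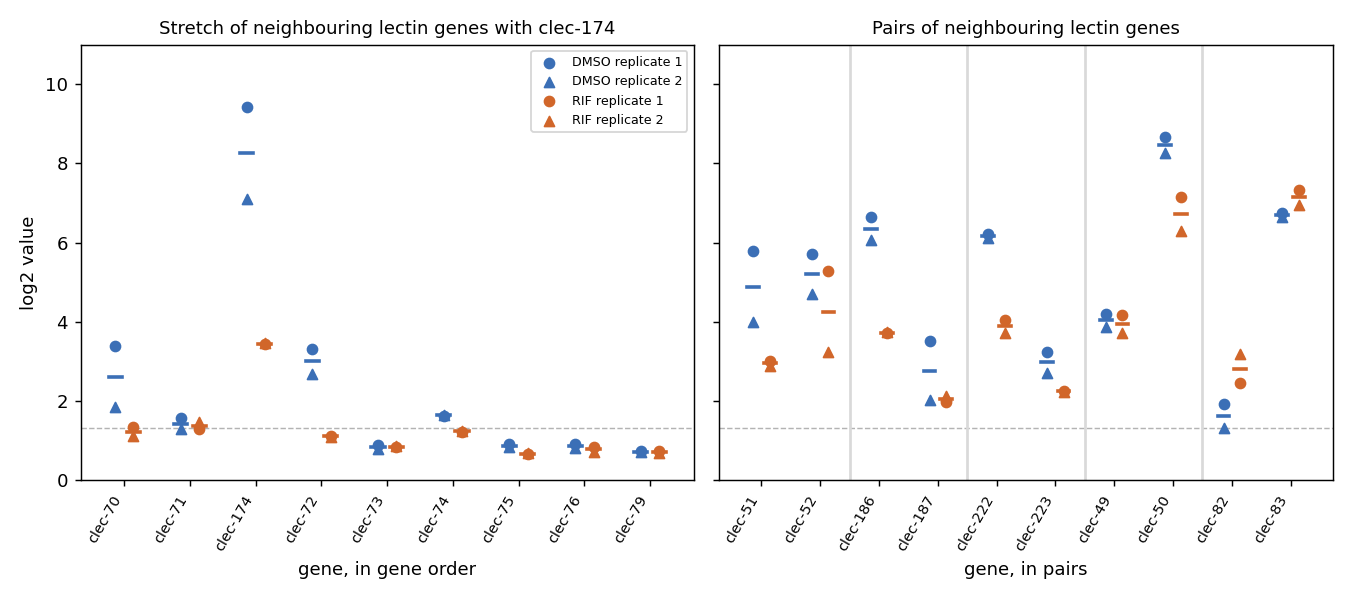
Log2 value on each array (vertical axis) of the group of neighbouring lectin genes around clec-174, in gene order (left), and of 5 pairs of neighbours (right), with circles for replicate 1, triangles for replicate 2, short lines for group means and a dashed line at the limit of the absent controls. In the left panel clec-174 and clec-72 fell and 4 of the other genes lie at background. In the right panel the neighbours of genes that fell or rose differ by less than those genes.

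The arrays of 1 group also differed from each other in the lectin genes. Of the 10 genes that fell, 9 had a higher value on DMSO replicate 1 than on DMSO replicate 2. No share over all genes was taken for this count or for the RIF counts below, so neither is read as particular to the lectins. Among the 99 members with a mean above the absent controls, 11 (11.1%) were at least 2-fold higher on DMSO replicate 1 than on replicate 2, against 6.05% of such genes over the whole table, and 2 were at least 2-fold lower. On the RIF arrays 9 were at least 2-fold higher on replicate 1 and 1 on replicate 2. In 7 of the 99 (7.07%, against 3.15% of all such genes) replicate 1 was higher by over 0.5 in both groups, namely clec-5, clec-7, clec-42, clec-47, clec-48, clec-52 and clec-86, and in 3, clec-4, clec-196 and clec-266, replicate 2 was (3.03%, against 3.25%). clec-47 showed the first pattern most plainly, with 8.04 and 6.03 with DMSO and 7.09 and 5.69 with RIF. The RNA quality difference, lowest on DMSO replicate 2, is 1 measure that also separates the DMSO arrays, and its part in these values was not tested.

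**Figure D5:**
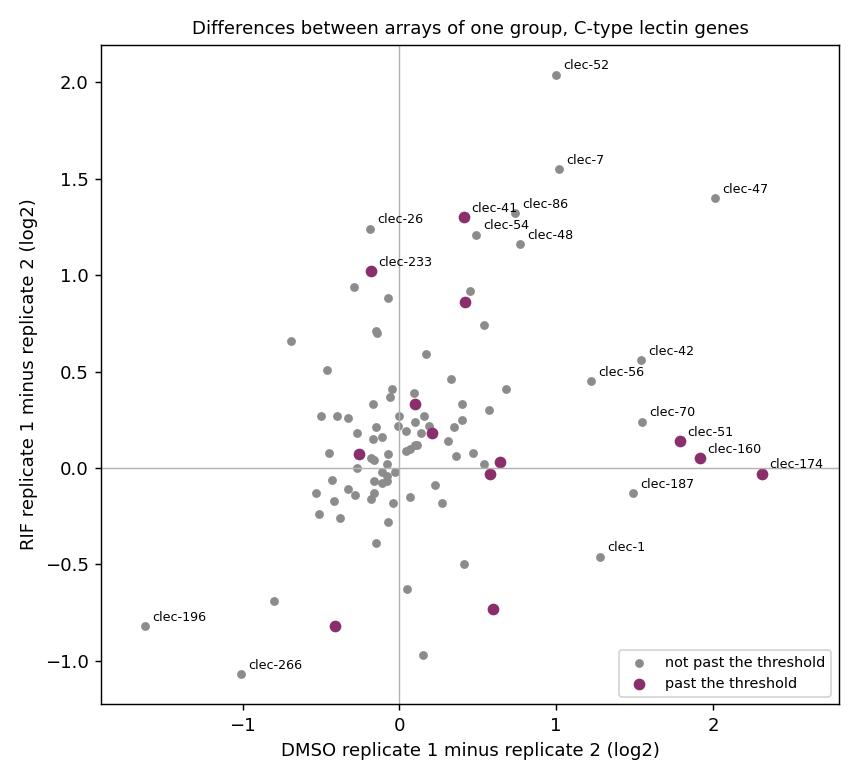
Replicate 1 minus replicate 2 on the RIF arrays (vertical axis) against the same on the DMSO arrays (horizontal axis), in log2 units, for the 99 lectin genes with a mean above the absent controls, with those past the threshold in purple. clec-174, clec-160 and clec-51 lie far to the right, near 0 on the vertical axis, and clec-47, clec-7 and clec-52 are higher on replicate 1 in both groups.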

How the data were processed

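RNA of whole N2 worms was measured on 4 Affymetrix arrays, 2 of worms given DMSO and 2 given RIF. The authors deposited log2 values, and the notes of the submitters give RMA and Affymetrix Expression Console, while the methods name GeneSpring GX. RMA fits probe sets across arrays and makes their distributions alike, which can hide a shift of all genes. Spike-in controls, used to check the log base, moved by 1.05 units per doubling. A field of the labels that names RNAi treatments was not used for grouping.

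Of 22625 probe sets, 77 controls were left out. RIF was compared with DMSO over the other 22548, two-sided and with no filter, with limma 3.58.1 (lmFit and eBayes without trend) in R 4.3.3, whose prior had 2.11 degrees of freedom and an SD of 0.19. A two-sided exact permutation test of 2 arrays against 2 cannot give a p below 0.333. The procedure was tested on simulated data. The 212 lectin genes have 227 single-gene probe sets, and 30 of them stand by a probe set with an ending for shared probes.

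Named are the lectins past the threshold, the 10 with the highest mean, the 3 largest differences in each direction short of the threshold, and a list known from infection work. Genes outside this rule, among them neighbours, were chosen after their values were seen. The members, lists and rule were chosen with earlier results of these data known. Of the other marker lists, none of 6 sperm genes and none of 7 neuron genes passed (medians -0.28 and 0.22). RefSeq's WBcel235 gene table was used for gene order and pseudogenes, and sequences were not used here.

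The alternatives were the methods' t-test, which the methods do not tie to the arrays, the replicate block, each array left out (the lone array is then assumed to vary like the other group), quantile normalization, centring on the median or on 111 ribosomal protein probe sets, an intensity trend with a robust prior, a filter on level, probe sets without shared endings, the mean of a gene's probe sets and another limit for absent transcripts.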

Additional observations from a re-analysis of the deposited data

Results flagged for a closer look

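Probe sets that name a lectin gene together with another gene were not used in the comparison, and 2 of the 22 passed the threshold. The probe set naming clec-69 and clec-67 read 4.53 and 3.56 with DMSO and 1.35 and 1.07 with RIF, a log2 difference of -2.84 (adjusted p = 0.325 from limma). The probe set naming F56A4.2 and clec-209 read 3.13 and 2.91 with DMSO and 1.36 and 1.5 with RIF, a difference of -1.59 (adjusted p = 0.234 from limma). Both were singled out because a signal above the absent controls changed in data outside the main measurement. clec-69 also has a probe set of its own, which read 0.86 and 0.54 with DMSO and 0.66 and 0.77 with RIF, within the absent range. Which of the genes gave the signal cannot be told from a probe set naming several, and it was not tested.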

How the results depend on the processing

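The count of lectin genes that fell, 10, and that rose, 3, was unchanged under quantile normalization, both centrings and the mean of a gene's probe sets. The methods' t-test passed 4 and 1, and none after Benjamini-Hochberg adjustment. Probe sets without shared endings gave 6 falls and 2 rises among 188 genes, without clec-160, clec-174, clec-41, clec-50 and clec-147, whose calls rest on probes that other transcripts may share. The filter on level left 99 lectin genes, of which 11 fell and 3 rose (2.49% and 2.06% of the 11605 genes left). clec-72 passed that filter only through its DMSO arrays. The intensity trend gave 12 and 3 of the 212 (1.74% and 1.57% of all genes). With 1 array left out, 8 to 15 fell and 1 to 3 rose, and the median log2 difference was -0.01 to 0.03, against 0.01. Without DMSO replicate 2, 15 fell and 1 rose.

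Centring on ribosomal proteins moved the lectin median to -0.15 and that of all genes from 0.03 to -0.13, so all directions there are relative to that shift. It also moved the calls over all genes to 391 lower and 143 higher, from 266 and 218. clec-39 (-0.027) and clec-266 (-0.065) changed sign there. With an array left out, the sign changed in clec-1 (-0.99 to 0.29), clec-4 (-0.80 to 0.006), clec-7 (-0.87 to 0.68), clec-17 (-0.55 to 0.14), clec-47 (-1.65 to 0.37), clec-49 (-0.33 to 0.14), clec-52 (-1.97 to 0.072), clec-71 (-0.18 to 0.089) and clec-266 (-0.44 to 0.63), none of them past the threshold.

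With the replicate number as a block, 12 fell and 2 rose (1.69% and 1.44% of all genes), clec-42 and clec-70 being added and clec-82 lost. The labels give the groups the same numbers without tying them to a shared culture, so no pairing was assumed. As a description, the deviations of same-numbered arrays correlated with r = 0.103 over all probe sets, and the differences between replicates with r = 0.132 over the genes above the absent controls and 0.325 over the 99 lectins. Values near the absent controls limit what can be read for 113 members.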
